A study of Mus musculus with 23 samples.

Results

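Lipopolysaccharide-binding protein (LBP) was compared with vehicle in mouse liver by RNA sequencing: 3 LBP libraries (replicates 2, 3 and 4) were set against the 4 vehicle libraries of the same batch, batch 1, out of 23 libraries in the series. The livers came from C57BL/6J mice. The LBP group had received recombinant protein at 1 µg per g body weight in 3 injections with 1 day between them. The vehicle libraries of batch 1 were taken to follow the same schedule of 3 injections with 1 day between them, which the series states for the injected proteins. Neither sex nor age is given. The labels do not say which species' LBP was injected, nor whether the libraries are from different animals, and the p-values below thus measure the spread between these libraries, which may be partly technical. The other 16 libraries, all of batch 2 (EPDR1, FCN2, FSTL3 and vehicle), enter only the estimate of that spread and 1 comparison near the end.

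LBP is a plasma protein that hepatocytes make and release in the acute phase. It lifts lipopolysaccharide, the outer membrane glycolipid of Gram-negative bacteria, out of aggregates and hands it to CD14, which passes it to the receptor pair TLR4 and MD-2, the product of Ly96. In liver this receptor is best known on Kupffer cells, the resident macrophages, and its signal runs through MyD88 and NF-kB to cytokines. Those cytokines in turn make hepatocytes produce acute phase proteins, in which the transcription factors C/EBP beta (Cebpb) and C/EBP delta (Cebpd) take part.

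The 7 libraries differed in ways that touch every result. Counts assigned to genes were 1463037, 2698245 and 3712802 in LBP replicates 2, 3 and 4, against 2419757, 773499, 8286793 and 3079666 in vehicle replicates 1 to 4. Albumin transcripts, which hepatocytes make in bulk, took 0.211% of the counts in LBP replicate 2, against 8.36% and 7.64% in LBP replicates 3 and 4 and 6.87% to 8.15% in the vehicle libraries. None of the 20 hepatocyte products listed was at 0 in any of these libraries, but together they took 8.88% of LBP replicate 2, against 14.3% to 16.3% of the other 6 libraries. With all libraries their median log2 fold change, LBP over vehicle, was 0.03, and 9 of the 20 were negative. The lower sum alone thus does not show a fall across the list. The profile of LBP replicate 2 correlated across 10835 genes at a Pearson r of 0.612 and 0.611 with the other LBP libraries, which correlated with each other at 0.947; the vehicle libraries correlated among themselves at 0.957 to 0.985. A single transcript, CT010467.1, took 12.3% of the counts of LBP replicate 2 and at most 0.621% of those of any other batch 1 library. Counts of called genes are therefore given with all libraries and without LBP replicate 2.

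Markers of other organs also set single LBP libraries apart. The 14 kidney markers summed to 0.337% of the counts in LBP replicate 3, where none was at 0, and to at most 0.000517% in each of the other 6 libraries, where 10 to 12 of the 14 were at 0. The 23 markers of the pancreatic acinar cell, which makes digestive enzymes, summed to 0.222%, 0.00256% and 0.114% in LBP replicates 2, 3 and 4, against 0.00107%, 0.00103%, 0.00119% and 0.0159% in vehicle replicates 1 to 4. Of these 23 genes 3 were at 0 in LBP replicates 2 and 4 and 19 in LBP replicate 3. So each LBP library carried, beside its liver transcripts, a set of kidney or pancreas transcripts that was scarce in vehicle replicates 1, 2 and 3. In bulk tissue, fewer cells of a type cannot be told apart from less RNA per cell. Whether these kidney and pancreas transcripts came from liver cells or from another tissue was not tested.

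**Figure D1:**
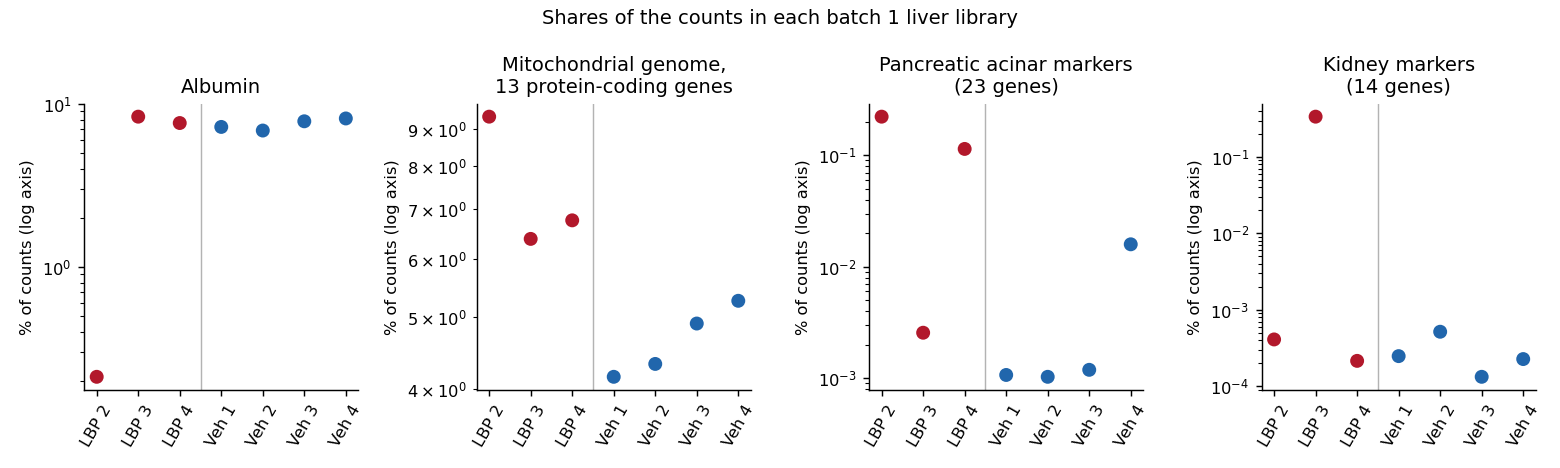
Share of each library's counts, in percent on log axes, taken by albumin, by the protein-coding genes of the mitochondrial genome and by the marker lists of the pancreatic acinar cell and of kidney; red points are the LBP libraries and blue points the vehicle libraries of batch 1. LBP replicate 2 is lowest for albumin at 0.211%, and LBP replicate 3 is highest for kidney markers at 0.337%.

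After LBP, transcripts of the transcription factors Cebpb, Cebpd and Nr2f6 and of the lipoprotein receptor Lrp1 were lower, by 0.95 to 1.73 on the log2 scale without LBP replicate 2. None of these lower genes passed the test of a difference from the mean EPDR1 and FCN2 effect, given near the end. The non-coding RNA Bc1 and the exocrine gland genes Spink1 and Klk1 were higher. Genes of endotoxin sensing, Cd14 and Tlr4 among them, did not pass the test against vehicle without LBP replicate 2. With all 23 libraries in the fit, 806 genes were higher and 116 lower after LBP among 11969 tested, that is 6.73% and 0.969% of them and 7.7% together. A gene was called when edgeR's quasi-likelihood test gave a Benjamini-Hochberg adjusted p under 0.05, and every adjusted p below is of this kind unless another tool is named. LBP replicate 2 exceeded the higher of LBP replicates 3 and 4 by over 2 times in 683 of the 806 higher genes. Without LBP replicate 2, 63 genes were higher and 26 lower among 12244 tested, that is 0.515% and 0.212% and 0.727% together. Both fits called 61 genes, 59 of them in the same direction, 42 higher and 17 lower. Values of the LBP and the vehicle libraries did not overlap for 51 of the 63 and all 26 without LBP replicate 2, where 10.8% of all genes tested lay wholly above and 11.4% wholly below vehicle. With all libraries they did not overlap for 288 of the 806 and 109 of the 116, beside 4.62% and 6.23% of all genes.

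These counts depend on the libraries that share in the estimate of spread. Levels are given in CPM, read counts per 1e6 counts of TMM-scaled library size. A fit on the 7 batch 1 libraries alone called 0 genes, and without LBP replicate 2 it called 12, of which 5 were among the 89: Cebpb, Nr2f6, Lrp1 and Pgls were lower and Bc1 was higher. The other 7 were not called in the fit over all groups; the largest of them, Ugt2b38, a glucuronosyltransferase gene with close copies, was at 2.27, 43.9 and 30.7 CPM after LBP, against 4.24, 6.85, 6.82 and 4.66 CPM after vehicle, with a log2 fold change of 2.71 (adjusted p = 0.000231) in batch 1 alone and 2.70 (adjusted p = 0.115) over all groups. Leaving out LBP replicate 3 as well, so that LBP replicate 4 stood alone and was assumed to vary as the other groups do, kept 24 of the 63 and 19 of the 26; leaving out LBP replicate 4 in its place kept 36 and 3. Among the 26 lower genes, 2 stayed called whichever further LBP or vehicle library was left out, Cebpb and Nr2f6. Among the 30 higher genes named below, 4 did: Bc1, Klk1, Snrpg and Spink1. Every other gene named as called without LBP replicate 2 lost its call when at least 1 further library was left out.

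The acute phase factors Cebpb and Cebpd were lower in every LBP library. Cebpb (ENSMUSG00000056501, chr2:167688915-167690418, plus strand, in the files' GRCm38 coordinates) encodes a leucine zipper factor of the acute phase and of fasting metabolism. Its level was 40.8, 38.1 and 29.9 CPM in LBP replicates 2, 3 and 4, against 107, 146, 96.6 and 108 CPM in vehicle replicates 1 to 4. No LBP library came near the lowest vehicle library. The log2 fold change was -1.73 ± 0.28 (SE) without LBP replicate 2, with an adjusted p of 0.00437, and -1.66 ± 0.30 with an adjusted p of 0.00865 with all libraries. Without LBP replicate 2, leaving out any further LBP or vehicle library gave adjusted p-values of 0.0119 to 0.0168, so the call did not rest on a single library. Cebpd, its partner in the acute phase, was at 5.67, 5.21 and 4.57 CPM after LBP, against 20.1, 25.1, 9.42 and 10.8 CPM after vehicle. The groups again did not overlap, although vehicle replicates 3 and 4 were well below vehicle replicates 1 and 2. It fell by 1.59 on the log2 scale in both fits (adjusted p = 0.0454 without LBP replicate 2 and 0.0137 with all), and its call without LBP replicate 2 was lost when LBP replicate 3, LBP replicate 4, vehicle replicate 1 or vehicle replicate 2 was left out.

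The bases before the starts of Cebpb, Nr2f6 and Lrp1 are shown because these 3 genes were lower whether the spread came from all libraries or from batch 1 alone, once LBP replicate 2 was out. Pgls met the same criterion and is not shown, since it was called higher with LBP replicate 2. They are the 250 bases upstream of the RefSeq start on GRCm38.p6, 5′ to 3′ on the gene's strand, for Cebpb (chr2:167688665-167688914, plus), Nr2f6 (chr8:71381953-71382202, minus) and Lrp1 (chr10:127621149-127621398, minus). RefSeq's promoter table held an entry for 23 of the 26 lower genes, Cebpd not among them. Capitals mark TGACG, the core of a cyclic AMP response element, and GGGCGG, the GC box, on either strand.
Cebpb: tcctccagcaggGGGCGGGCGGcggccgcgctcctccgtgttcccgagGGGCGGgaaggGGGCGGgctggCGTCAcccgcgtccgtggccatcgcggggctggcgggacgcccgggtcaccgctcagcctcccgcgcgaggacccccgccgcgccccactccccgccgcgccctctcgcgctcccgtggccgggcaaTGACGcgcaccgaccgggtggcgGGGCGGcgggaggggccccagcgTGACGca
Nr2f6: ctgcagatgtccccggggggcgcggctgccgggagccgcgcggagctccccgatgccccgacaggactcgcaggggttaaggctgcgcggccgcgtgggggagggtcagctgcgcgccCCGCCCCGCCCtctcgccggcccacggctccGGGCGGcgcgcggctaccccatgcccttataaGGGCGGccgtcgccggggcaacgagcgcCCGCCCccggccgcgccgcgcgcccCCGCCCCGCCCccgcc
Lrp1: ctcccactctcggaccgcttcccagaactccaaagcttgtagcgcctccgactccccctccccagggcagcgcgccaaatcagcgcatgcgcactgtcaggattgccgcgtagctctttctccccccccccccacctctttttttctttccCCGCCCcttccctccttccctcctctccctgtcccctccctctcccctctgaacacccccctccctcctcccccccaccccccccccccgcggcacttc
Cebpb held 3 copies of TGACG and 5 of GGGCGG, Nr2f6 held 0 and 7, and Lrp1 held 0 and 1, counting both strands and letting copies overlap. TGACG was present in 17.8% of the 32851 promoter entries of the same length and GGGCGG in 32.7%. None of the 3 held CCAAT, present in 33.8% of the entries, or the full C/EBP palindrome TTGCGCAA, present in 0.164%. These matches describe letters in this window only.

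Nr2f6 (ENSMUSG00000002393), an orphan nuclear receptor that acts mostly as a repressor, was at 12.7 and 12.4 CPM in LBP replicates 3 and 4, against 34.3, 53.6, 38.6 and 43.1 CPM in vehicle replicates 1 to 4. LBP replicate 2 had 36.3 CPM and lay among the vehicle libraries. Nr2f6 fell by 1.72 on the log2 scale without it (SE 0.31, adjusted p = 0.00746) and stayed called when any further library was left out (0.014 to 0.0407), while with all libraries the change was -1.19 with an adjusted p of 0.0555. Lrp1 (ENSMUSG00000040249), the large endocytic receptor that clears chylomicron remnants and protease complexes, was at 457, 583 and 563 CPM after LBP, against 997, 1173, 1110 and 1145 CPM after vehicle. Every LBP library thus had less Lrp1, in CPM, than any vehicle library. The log2 fold change was -0.95 ± 0.22 without LBP replicate 2 (adjusted p = 0.0315) and -1.05 ± 0.24 with all (adjusted p = 0.0133), but leaving out any 1 further library in the fit without LBP replicate 2 moved the adjusted p to between 0.0532 and 0.107.

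Further lower genes had diverse roles. Fancf, of the Fanconi anaemia core complex, was at 0, 0.651 and 0.807 CPM after LBP, against 3.89, 1.14, 5.2 and 3.79 CPM after vehicle; the level in vehicle replicate 2 is that of 1 count. Endog, a mitochondrial nuclease, was at 1.13, 6.51 and 3.5 CPM after LBP, against 13.1, 14.8, 12.6 and 12.8 CPM after vehicle. Rabep2, an effector of Rab GTPases on endosomes, was at 0, 5.53 and 4.3 CPM after LBP, against 11, 16, 15.2 and 9.33 CPM after vehicle. These 3 genes had log2 fold changes of -2.45, -1.41 and -1.37 without LBP replicate 2 (adjusted p = 0.0217, 0.0384 and 0.0301) and were also lower with all libraries. Irf2bpl, a nuclear regulator of the IRF2BP family, was at 6.8, 11.4 and 6.45 CPM after LBP, against 27.6, 37.7, 18.8 and 18.1 CPM after vehicle, a log2 fold change of -1.42 ± 0.32 (adjusted p = 0.0301). The basement membrane gene Col18a1, which encodes the precursor of endostatin, was at 359, 636 and 451 CPM after LBP, against 759, 1017, 998 and 977 CPM after vehicle (log2 fold change -0.79, adjusted p = 0.0217). Its partner in basement membranes Hspg2, or perlecan, was at 14 and 9.95 CPM in LBP replicates 3 and 4, against 18.4, 33.1, 28.9 and 27.7 CPM in the vehicle libraries, but at 65.7 CPM in LBP replicate 2 (log2 fold change -1.16 without LBP replicate 2, adjusted p = 0.0217; -0.04 with all, adjusted p = 0.978).

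The remaining lower genes fell by between 0.65 and 1.87 on the log2 scale without LBP replicate 2. Mfsd12, Bri3, Zc3h12c, Pitpnm2, Klf13, Arhgef19, Ptprf, Zyx and Slc25a23 were lower in both fits. Atp13a2, a lysosomal transport ATPase, and Abhd17a, a depalmitoylating enzyme, were lower without LBP replicate 2 only (adjusted p = 0.0299 and 0.018; with all 0.0937 and 0.418), as were Pcdh1 and Kdm6b, a histone demethylase. Zfp771, Tmem238 and Pgls, an enzyme of the pentose phosphate pathway, had values of 163, 288 and 826 CPM in LBP replicate 2, against no more than 41.1 CPM in any vehicle library. In LBP replicates 3 and 4 the same genes lay below every vehicle library, with log2 fold changes of -1.37, -1.71 and -1.35 and adjusted p-values of 0.0282, 0.0217 and 0.0217. With all libraries Tmem238 and Pgls were called higher (log2 fold change 3.36 and 3.11, adjusted p = 0.026 each). Of the 26 lower genes 24 had LBP replicates 3 and 4 within 2 times of each other, on CPM + 1.

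**Figure D2:**
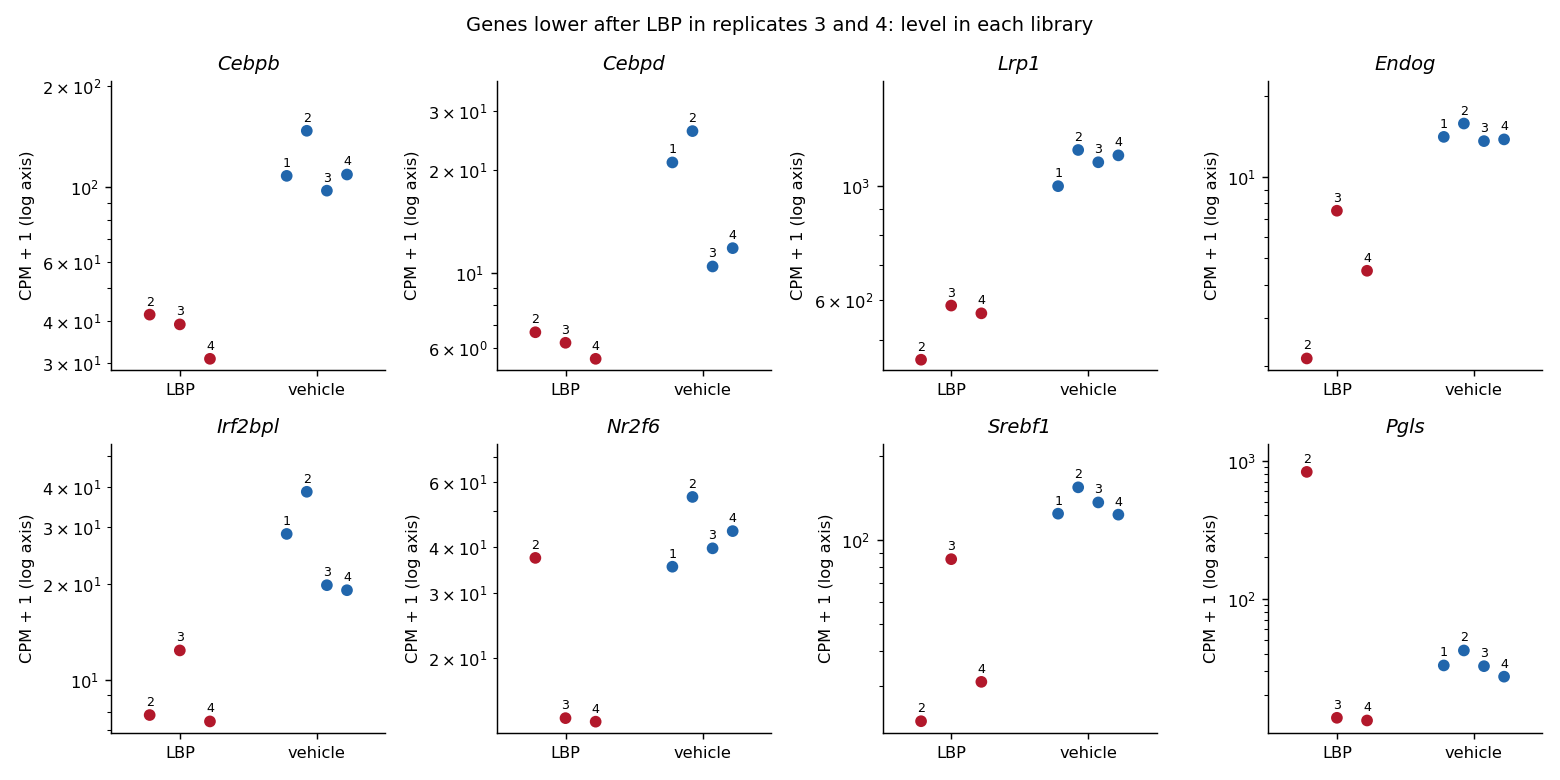
Level of 8 genes in each library, as CPM + 1 on log axes, with the replicate number above each point; red is LBP and blue is vehicle of batch 1. Cebpb, Cebpd, Lrp1, Endog, Irf2bpl and Srebf1 were lower in every LBP library than in any vehicle library, whereas Nr2f6 and Pgls were lower in LBP replicates 3 and 4 and not in LBP replicate 2.

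Higher genes fell into genes high mainly in LBP replicate 3 and genes raised about equally in LBP replicates 3 and 4. Of the 63 genes higher without LBP replicate 2, 28 had LBP replicate 3 over 2 times LBP replicate 4, 1 had the reverse and 34 lay within 2 times. The 28 had a median log2 fold change of 3.35. Since they were chosen for a high LBP replicate 3, that 2 of them stayed called without it and all 28 without LBP replicate 4 is largely set by that choice. The 34 had a median of 0.78, and 21 of them stayed called without LBP replicate 3 and 8 without LBP replicate 4.

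Spink1 and Klk1 were the genes of the first kind that stayed called without LBP replicate 3. Spink1 (ENSMUSG00000024503), a trypsin inhibitor made mainly by the exocrine pancreas, was at 101, 27.7 and 4.84 CPM after LBP (89, 85 and 18 counts), against 0 in all 4 vehicle libraries. Against a floor of 3 counts over the 4 vehicle libraries together, it was at least 82.7-fold higher without LBP replicate 2 and at least 137-fold higher with it (adjusted p = 2e-04 and 0.000911). Klk1 (ENSMUSG00000063903), tissue kallikrein of salivary gland, pancreas and kidney, was at 47.6, 71.3 and 11.8 CPM after LBP, against 0, 0, 0.108 and 1.46 CPM after vehicle. Its log2 fold change was 6.68 ± 0.81 without LBP replicate 2 (adjusted p = 0.000334) and 6.73 with all (adjusted p = 0.000181). The vehicle library with the most Klk1, replicate 4, was also the one with the most acinar marker counts. Spink1 was at 0 in that library. Every LBP library was high in the acinar or the kidney markers given above. Spink1 was at 27.7 CPM in LBP replicate 3, where the acinar share was 0.00256%, and at 4.84 CPM in LBP replicate 4, where it was 0.114%. The part of those tissues in the result of both genes was not tested.

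Genes known from kidney were among those high in LBP replicate 3. Kap, the kidney androgen-regulated protein, was at 2.27, 2051 and 0 CPM after LBP, against 0.707, 3.42, 0.433 and 0.875 CPM after vehicle. Kap is itself among the 14 kidney markers, so their summed share in LBP replicate 3 includes its counts and is not separate from its level. Gpx3, the plasma glutathione peroxidase secreted by proximal tubules, was at 46.5, 1061 and 6.19 CPM, against 6.01, 4.57, 5.09 and 3.21 CPM after vehicle. Acsm2, a medium-chain acyl-CoA synthetase, was at 3.4, 356 and 2.15 CPM, against 1.06, 0, 1.19 and 2.33 CPM after vehicle. In all 3 genes the LBP replicate 4 value was close to or within the vehicle range. Kap was not tested with all libraries. Their calls without LBP replicate 2 (adjusted p = 0.0217, 0.00684 and 0.00974) came with a kidney marker share of 0.337% in LBP replicate 3, and Gpx3 was no longer called without LBP replicate 3 (adjusted p = 0.792). Cyp4b1, Oxct1 and Kcnj16, at 213, 111 and 66.1 CPM in LBP replicate 3, were at 7.8, 5.11 and 2.42 CPM in LBP replicate 4, against at most 17, 6.01 and 3.18 CPM in the vehicle libraries. Slc6a20b, a transporter of the brush border, was at 0, 15.3 and 0.538 CPM after LBP, against 0, 0, 0.108 and 0 CPM after vehicle; with 1 vehicle count, the pooled ratio without LBP replicate 2 was 118, with a counting interval of 20.2 to 4758.

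Several other genes that the naming rule picked followed the same order, highest in LBP replicate 3. Ace, angiotensin-converting enzyme, was at 21.2 and 2.96 CPM in LBP replicates 3 and 4, against 0 to 1.06 CPM in the vehicle libraries (log2 fold change 3.79, adjusted p = 0.00631; not tested with all libraries). The tetraspanin gene Cd63 was at 7.93, 26.7 and 1.88 CPM after LBP, against 0.707, 1.14, 1.3 and 0.875 CPM after vehicle (log2 fold change 3.68, adjusted p = 0.00403). Tnfaip8, named for its induction by tumour necrosis factor, was at 4.53, 32.9 and 5.38 CPM, against 1.41, 0, 1.84 and 2.04 CPM after vehicle (log2 fold change 3.48, adjusted p = 0.00296). Cgref1, Cyfip2, Lipo3 and Macrod2 had log2 fold changes of 3.70, 2.96, 2.5 and 2.41 (adjusted p = 0.00296, 0.0217, 0.0217 and 0.00684), again with LBP replicate 3 highest. Each of the 7 genes from Ace to Macrod2 was lost when LBP replicate 3 was left out of the fit without LBP replicate 2. Nupr1, a stress-induced chromatin protein, ran the other way, at 21.5, 3.25 and 9.95 CPM after LBP, against 1.06, 1.14, 0.975 and 0.583 CPM after vehicle. Its log2 fold change was 2.86 ± 0.59 (adjusted p = 0.0217), and it was lost without LBP replicate 4 and without vehicle replicate 1, 3 or 4. The acinar marker share was likewise higher in LBP replicates 2 and 4 than in LBP replicate 3, and its part in the Nupr1 result was not tested.

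**Figure D3:**
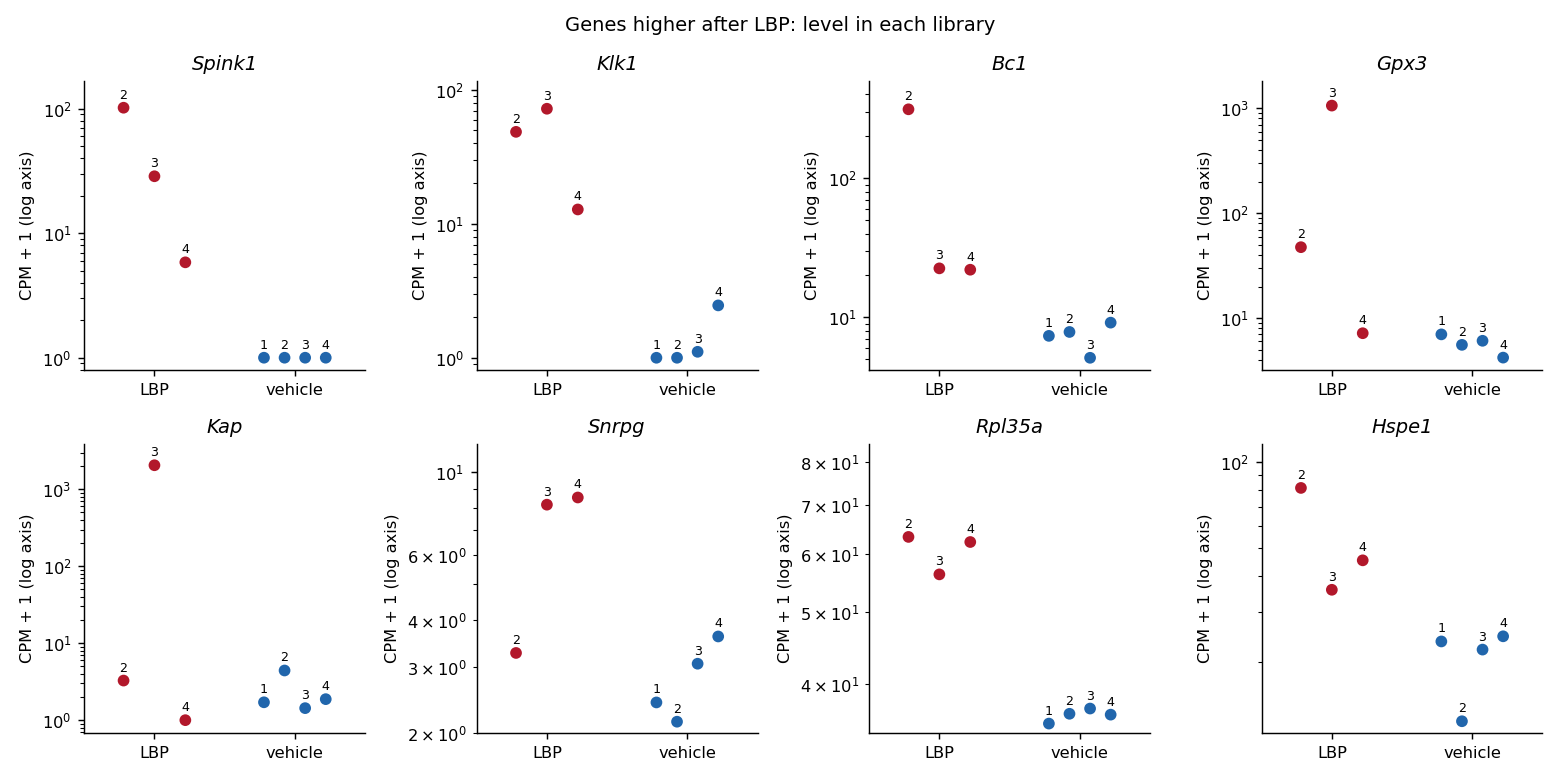
Level of 8 genes in each library, as CPM + 1 on log axes, with the replicate number above each point; red is LBP and blue is vehicle of batch 1. Spink1, Klk1, Bc1, Rpl35a and Hspe1 were higher in every LBP library than in any vehicle library, whereas Kap stood out in LBP replicate 3 alone at 2051 CPM and Snrpg in LBP replicates 3 and 4.

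The genes within 2 times between LBP replicates 3 and 4 had smaller fold changes. Bc1 (ENSMUSG00000115783, chr7:144914470-144914637, plus strand), a short non-coding RNA transcribed by RNA polymerase III and best known from neurons, was at 312, 21.5 and 21 CPM after LBP, against 6.36, 6.85, 4.12 and 8.16 CPM after vehicle. LBP replicates 3 and 4 were nearly equal and above every vehicle library. The log2 fold change was 1.85 ± 0.30 without LBP replicate 2 (adjusted p = 0.003) and 4.19 ± 0.67 with all (adjusted p = 0.0082), and the call held whichever further library was left out. The spliceosome proteins Snrpg and Snrpd1 were at 7.16 and 7.53 CPM and at 12 and 21.5 CPM in LBP replicates 3 and 4, against 1.14 to 2.62 and 6.72 to 7.87 CPM in the vehicle libraries (adjusted p = 0.00684 and 0.0245). Brix1, Nsa2 and Ltv1, which act in the assembly of ribosomal subunits, had log2 fold changes of 0.85, 0.95 and 0.94 (adjusted p = 0.0262, 0.0323 and 0.0246). Nemf, a ribosome quality control factor, and Btf3, of the nascent polypeptide-associated complex, had log2 fold changes of 0.67 and 0.94 (adjusted p = 0.0314 and 0.0262), and the snoRNA host gene Gas5 had 0.59 (adjusted p = 0.0444). Brix1, Nsa2, Ltv1, Nemf, Btf3, Gas5, Snrpg and Snrpd1, like the kidney genes Kap, Acsm2, Cyp4b1, Oxct1 and Kcnj16, fall outside the naming rule and were chosen after their values were seen, as were the lower genes Col18a1, Hspg2, Bri3, Zc3h12c, Pitpnm2, Klf13, Arhgef19, Ptprf, Zyx, Slc25a23, Abhd17a, Pcdh1 and Kdm6b.

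**Figure D4:**
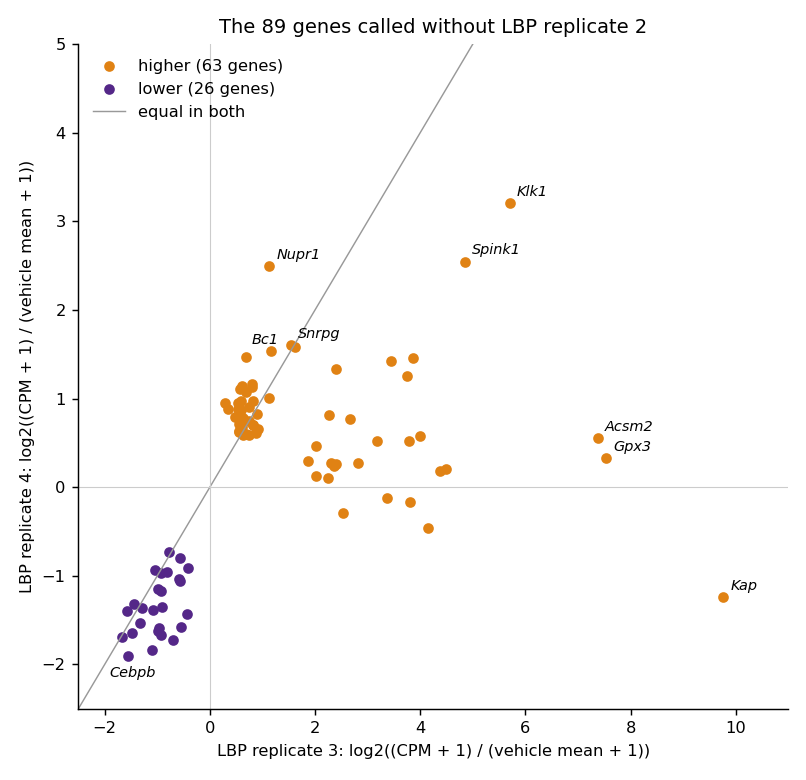
Each of the 89 genes called without LBP replicate 2, with its level in LBP replicate 3 (horizontal) and in LBP replicate 4 (vertical) as log2 of CPM + 1 over the vehicle mean + 1; orange genes were higher, purple genes lower, and the line marks equality. The 28 genes with LBP replicate 3 over 2 times replicate 4 lie to the right of the line, and 24 of the 26 lower genes lie within 2 times of it.

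Cytosolic ribosomal proteins, the longest list, had the most members called without LBP replicate 2, though not the largest share. The share was 4.69% of those tested, against 11.1% of heat shock genes and 9.09% of liver transcription factors. Of 64 tested, 3 were higher and 0 lower, with a median log2 fold change of 0.27 beside 0.00649 over all genes. Of all genes 0.515% were called higher in that fit. With all libraries 23 were higher and 0 lower, with a median of 0.78 beside 0. That is 35.9% of the list, beside 6.73% of all genes called higher. Exon length differed between higher and lower genes in both fits. With all libraries its median was 3148 bases for genes higher, 5293 for genes lower and 4310 for all tested. Without LBP replicate 2 these medians were 3588, 4768 and 4273 bases. In LBP replicate 2, the 2130 genes with exons up to 2465 bases had a median log2 ratio to the vehicle mean of 0.18. That ratio, on CPM + 1, was between -0.64 and -0.45 in 4 bins of longer genes. The part of exon length in the ribosomal protein values was not tested. Rps25 was at 5.67, 21.8 and 28.5 CPM after LBP, against 6.36, 3.42, 10.4 and 16.6 CPM after vehicle. Rpl35a was at 62.3, 55.3 and 61.3 CPM after LBP, against 34.3, 35.4, 36 and 35.3 CPM after vehicle. LBP replicate 2 overlapped the vehicle libraries for Rps25 and not for Rpl35a. Their log2 fold changes without LBP replicate 2 were 1.29 and 0.73 (adjusted p = 0.019 and 0.0301), and Rpl35 had 1.02 with an adjusted p of 0.0623. Ribosomal protein genes have many processed pseudogenes, so their counts are uncertain where reads map to several copies.

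Heat shock genes had 2 of 18 members higher and 0 lower without LBP replicate 2, with a median log2 fold change of 0.44. That is 11.1% of the list, beside 0.515% of all genes called higher. With all libraries 4 were higher, with a median of 0.55, that is 22.2% beside 6.73%. Hspe1, the mitochondrial co-chaperone of Hsp60, was at 80.4, 34.8 and 44.4 CPM after LBP, against 22.6, 11.4, 21.1 and 23.6 CPM after vehicle (log2 fold change 0.93 ± 0.20, adjusted p = 0.0271). Cryab, a small heat shock protein, was at 1.13, 11.4 and 3.5 CPM, against 1.06, 1.14, 2.6 and 1.46 CPM after vehicle (log2 fold change 1.96, adjusted p = 0.0217), and was lost without LBP replicate 3 and without vehicle replicate 1 or 4. The cytosolic co-chaperone gene Dnaja1 had a log2 fold change of 0.93 and the regulator Hsf1 one of -0.86, with adjusted p-values of 0.11 and 0.112.

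Of all genes 0.212% were called lower and 0.515% higher without LBP replicate 2, and 0.969% lower and 6.73% higher with all libraries. Liver transcription factors had 2 of 22 members lower, Cebpb and Cebpd, and 0 higher without LBP replicate 2, with a median log2 fold change of -0.18. Rxra, the shared partner of many nuclear receptors, had -0.50 with an adjusted p of 0.159. With all libraries 2 members were higher and the same 2 lower. NF-kB and cytokine targets had 1 of 23 members lower, Cebpd, and 0 higher, with a median of -0.19 (1 higher and 1 lower with all libraries, median -0.28); Rela, Junb and Rel, subunits of NF-kB and AP-1, had -0.54, -1.07 and -0.61 with adjusted p-values of 0.213, 0.272 and 0.345. Gluconeogenesis and fasting genes had 1 of 19 lower, again Cebpb, with a median of -0.20 (1 higher and 1 lower with all libraries, median -0.24). Pcx, Gcgr and Irs2, the pyruvate carboxylase, the glucagon receptor and an insulin receptor substrate, had -0.46, -0.56 and -0.71 with adjusted p-values of 0.157, 0.208 and 0.384. Apolipoproteins and lipoprotein handling had 1 of 28 lower, Lrp1, and 0 higher, with a median of -0.22. With all libraries 6 members of that list were higher and 1 lower, 25% of it beside 7.7% of all genes, with a median of -0.24. The receptor Scarb1 and the lipase inhibitor Angptl8 had -0.45 and -1.52 with adjusted p-values of 0.203 and 0.189 without LBP replicate 2. These 6 lists were those with a member called without LBP replicate 2, of 36 pathway lists in all; with all libraries 28 lists had one.

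Genes of endotoxin sensing, the pathway LBP serves, had 0 of 25 members called in either direction without LBP replicate 2, with a median log2 fold change of -0.12. With 0.727% of all genes called in that fit, a count of 0 in a list of this size is no sign that the pathway was unaffected. With all libraries 2 of 24 were higher and 1 lower, 12.5% of the list beside 7.7% of all genes. Lbp itself was at 41.9, 80.7 and 188 CPM after LBP, against 147, 178, 131 and 127 CPM after vehicle. The highest of the 7 values and the 2 lowest were all in LBP libraries, and the log2 fold change was -0.09 ± 0.33 (adjusted p = 0.953) without LBP replicate 2 and -0.46 ± 0.36 (adjusted p = 0.489) with all. These counts measure the mouse transcript and not the injected protein. Cd14, the receptor that takes lipopolysaccharide from LBP, was at 3.4, 0.651 and 4.57 CPM after LBP, against 2.47, 1.14, 2.06 and 2.92 CPM after vehicle. Tlr4 was at 0, 1.95 and 1.88 CPM, against 1.77, 1.14, 1.19 and 1.46 CPM after vehicle, and Ly96 at 2.27, 1.95 and 6.19 CPM, against 4.24, 4.57, 3.47 and 2.62 CPM after vehicle. At these levels a library held few counts of each gene, and the adjusted p-values without LBP replicate 2 were 0.916, 0.802 and 0.851 with log2 fold changes of 0.25 ± 0.62, 0.48 ± 0.62 and 0.25 ± 0.40, so differences of this size were not detectable. With all libraries Cd180, a homologue of Tlr4 on antigen-presenting cells, was lower at 0, 0.325 and 0.807 CPM after LBP, against 3.18, 1.14, 2.49 and 2.62 CPM after vehicle (log2 fold change -2.27, adjusted p = 0.0181; -2.09 and 0.0895 without LBP replicate 2). The adaptor and kinase genes Tirap and Irak1 were higher with all libraries only (adjusted p = 0.0165 and 0.0448), at 513 and 341 CPM in LBP replicate 2 and at most 35.6 and 73 CPM in the other 6 libraries. Gsdmd, Traf6 and Scarb1, the pore protein of pyroptosis, a ubiquitin ligase of the pathway and a lipoprotein receptor that also takes up lipopolysaccharide, had adjusted p-values of 0.304, 0.434 and 0.203.

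Without LBP replicate 2, where 0.727% of all genes were called, acute phase proteins had 0 of 29 members called and a median log2 fold change of 0.43, with 5 of 29 negative; with all libraries 1 was higher and the median was 0.75. Fgb and Fga, 2 chains of fibrinogen, were at 656, 4864 and 13297 CPM and at 1398, 4860 and 13250 CPM after LBP, against 5972 to 6191 CPM and 6262 to 6548 CPM after vehicle. LBP replicate 4 thus lay above and LBP replicates 2 and 3 below every vehicle library. Serpina3k was at 11238, 8594 and 12912 CPM after LBP, against 7761, 8633, 7127 and 8363 CPM after vehicle (log2 fold change 0.43, adjusted p = 0.295), and Lrg1, a secreted glycoprotein of the acute phase, at 2918, 233 and 425 CPM, against 701, 1021, 533 and 604 CPM after vehicle (log2 fold change -1.11, adjusted p = 0.243). Interferon response genes had 0 of 41 called with a median of 0.07 without LBP replicate 2, and 2 of 39 higher with a median of -0.07 with all libraries. In the fit with all libraries 7.7% of all genes were called. Antigen presentation had 0 of 21 called without LBP replicate 2, with a median of -0.35 and 17 of 21 negative, and 1 lower with all. Against the share of all genes called, counts of 0 in lists of this size show nothing about them. H2-Ab1, a class II chain, was at 7.93, 21.2 and 5.11 CPM after LBP, against 40.3, 26.3, 31.4 and 16.6 CPM after vehicle, and was called with all libraries only (log2 fold change -1.28, adjusted p = 0.043; -1.18 and 0.17 without LBP replicate 2). The class I genes H2-Q7, H2-K1 and H2-D1 had log2 fold changes of -0.87, -0.36 and -0.35 with adjusted p-values of 0.159, 0.296 and 0.325. Markers of Kupffer cells, which present antigen, summed to 0.092%, 0.0526% and 0.0627% of counts after LBP, against 0.0927%, 0.0693%, 0.0636% and 0.0705% after vehicle, with 0 of 15 tested markers called without LBP replicate 2 and 13 of 15 negative; their part in the class II values was not tested.

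Of the genes of lipid synthesis, none passed the test without LBP replicate 2. With 0.727% of all genes called in that fit, counts of 0 in lists of this size show nothing about the lists. Cholesterol synthesis had 0 of 25 members called without LBP replicate 2, 24 of 25 with a negative log2 fold change and a median of -0.27. The median over all genes was 0.00649. With all libraries 2 were lower, Dhcr7 and Srebf2, 8% of the list beside 0.969% of all genes called lower. Dhcr7, the last reductase of the pathway, was at 11.3, 45.2 and 30.1 CPM after LBP, against 56.2, 67.3, 98.3 and 73.2 CPM after vehicle (log2 fold change -1.29, adjusted p = 0.0253 with all; -1.0 and 0.139 without LBP replicate 2). Srebf2, the sterol-sensing transcription factor, had -0.81 with an adjusted p of 0.0495 with all and -0.58 with 0.182 without LBP replicate 2. Pmvk, an early kinase, was at 23.1 and 20.7 CPM in LBP replicates 3 and 4, against 35.7 to 57.3 CPM in the vehicle libraries, and at 75.9 CPM in LBP replicate 2 (log2 fold change -1.06, adjusted p = 0.0625 without it). Fatty acid and triglyceride synthesis had 0 of 21 called, 20 of 21 negative and a median of -0.36. The list took 0.223%, 0.825% and 0.414% of counts in LBP replicates 2, 3 and 4, against 0.662%, 0.733%, 1.25% and 0.736% in vehicle replicates 1 to 4, so LBP replicate 3 lay above 3 of the vehicle libraries and vehicle replicate 3 stood above all. Its regulator Srebf1 was at 21.5, 84.3 and 30.1 CPM after LBP, against 123, 153, 135 and 122 CPM after vehicle. Srebf1 was lower with all libraries (log2 fold change -1.51 ± 0.34, adjusted p = 0.0123) and missed the threshold without LBP replicate 2 (-1.22 ± 0.31, adjusted p = 0.0659). Fasn, Fads2 and Dgat2, enzymes of fatty acid and triglyceride synthesis, had -0.87, -0.59 and -0.36 with adjusted p-values of 0.196, 0.168 and 0.176.

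Transcripts of the mitochondrial genome took a larger share of every LBP library than of any vehicle library. The protein-coding ones summed to 9.34%, 6.38% and 6.76% of counts in LBP replicates 2, 3 and 4, against 4.15%, 4.32%, 4.9% and 5.26% in vehicle replicates 1 to 4. Of the 13 genes 7 were tested, and the other 6 are listed at or near 0 in every library, mt-Co2 and mt-Co3 among them. All 7 had positive log2 fold changes in both fits, with a median of 0.66 without LBP replicate 2 and 0.99 with all; 0 were called without LBP replicate 2 and 4 were higher with all. mt-Nd4, a complex I subunit, was at 15621, 6525 and 6772 CPM after LBP, against 3127, 4092, 4446 and 4685 CPM after vehicle (log2 fold change 0.70, adjusted p = 0.0787 without LBP replicate 2; 1.24 and 0.014 with all). mt-Nd1, mt-Cytb and mt-Nd2 had 0.67, 0.66 and 0.62 with adjusted p-values of 0.0682, 0.0877 and 0.11 without LBP replicate 2. In the comparison near the end, the LBP effect minus the mean EPDR1 and FCN2 effect was smaller. For mt-Nd4, mt-Nd1, mt-Cytb and mt-Nd2 it was 0.19, 0.29, 0.29 and 0.31 without LBP replicate 2 (adjusted p = 0.906, 0.793, 0.809 and 0.792). The fitted mean effect of EPDR1 and FCN2 was thus also positive for each. Nuclear genes of oxidative phosphorylation had 0 of 46 called and a median of 0.12 without LBP replicate 2, against 15 higher and a median of 0.28 with all; the shares of all genes called higher in these fits were 0.515% and 6.73%. The proteasome had 0 of 33 called without LBP replicate 2, against 9 higher with all.

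**Figure D5:**
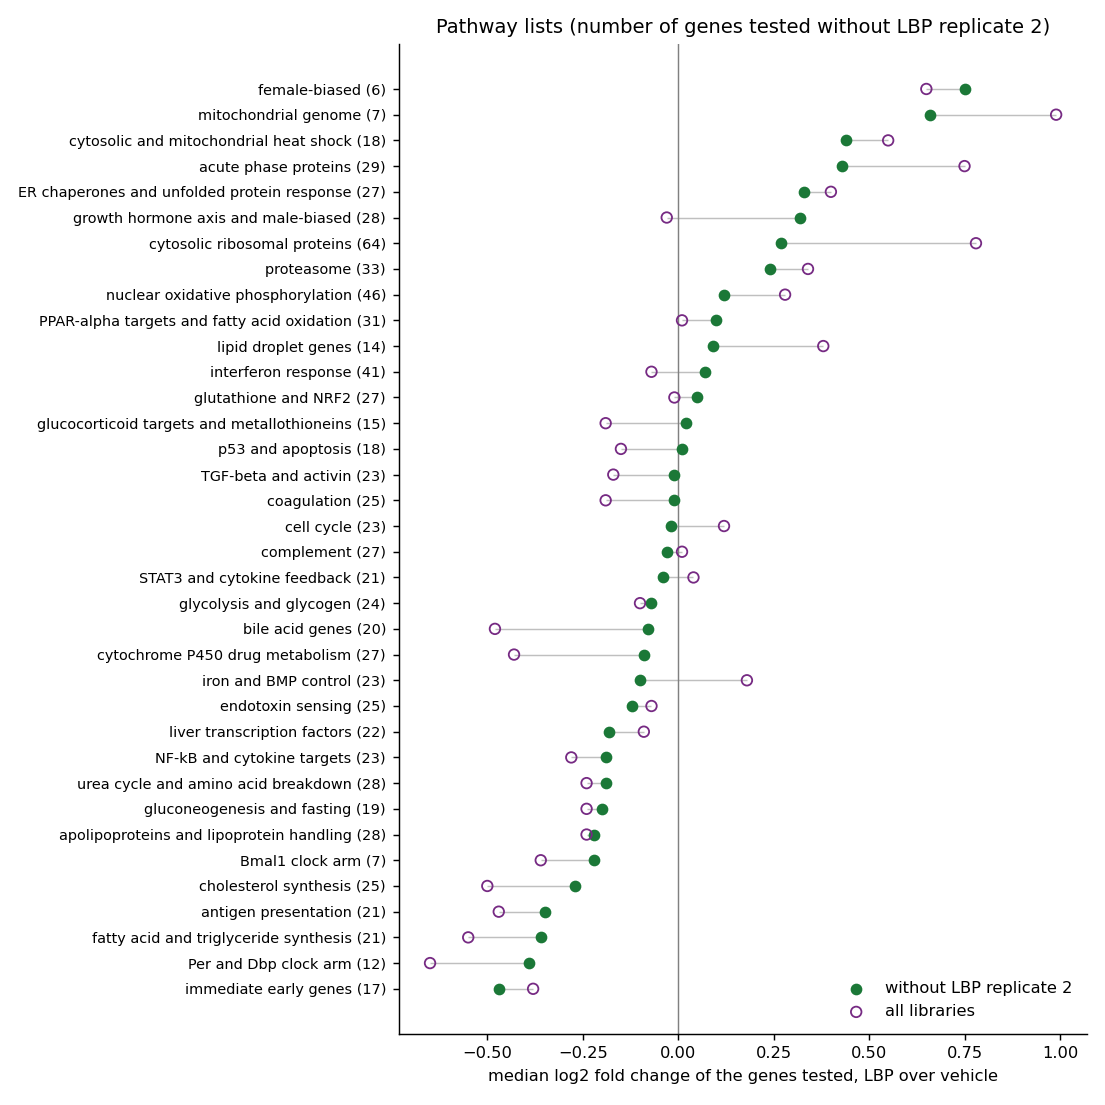
Median log2 fold change, LBP over vehicle, of the tested genes of each of the 36 pathway lists; filled green points are without LBP replicate 2 and open purple points with all libraries. The mitochondrial genome lies to the right at 0.66 and 0.99, and fatty acid and triglyceride synthesis to the left at -0.36 and -0.55.

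Many genes called only with LBP replicate 2 in the fit had their highest level there. Snord13, a small nucleolar RNA, was at 229, 3.58 and 2.69 CPM after LBP, against 0.353, 0, 0.325 and 0.583 CPM after vehicle. Fam25c was at 1653, 25.1 and 36 CPM, against 18.3 to 23.7 CPM after vehicle, and Atp5k, a subunit of ATP synthase, at 2679, 93.1 and 78 CPM, against 45.7 to 68.6 CPM after vehicle. In each of these the LBP replicate 2 value was over 10 times that of the other LBP libraries, and the adjusted p was 0.00865 with all libraries and 0.0546, 0.276 and 0.12 without it. Zcchc17, Ndufb2, Prmt5 and mt-Tm were at 393, 772, 415 and 169 CPM in LBP replicate 2, against at most 16.4, 36.4, 15.1 and 9.11 CPM in the other 6 libraries. Among genes lower with all libraries, Fbxl15, Rab43, Gpn2, Tert, Itpr3 and Mrnip had log2 fold changes of -2.64, -1.90, -1.73, -1.66, -1.85 and -1.78 and adjusted p-values of 0.0214, 0.0184, 0.0115, 0.014, 0.035 and 0.043. Without LBP replicate 2 their log2 fold changes lay between -2.77 and -1.58 and their adjusted p-values between 0.0539 and 0.174, so the size of the difference in LBP replicates 3 and 4 was similar while the test no longer passed. Against the median of the other 6 batch 1 libraries, the genes highest in LBP replicate 2 included the pancreatic Cela3b, Pnliprp1 and Clps, at 597, 431 and 368 CPM. The lowest included the hepatocyte secretory gene Selenop, at 77.1 CPM, against 5193 to 7380 CPM in the other 6 libraries.

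The response to LBP was also set against that to EPDR1 and FCN2, 2 other injected proteins, by testing the LBP effect minus the mean of the EPDR1 and FCN2 effects, each against the vehicle of its own batch. With all libraries 0 of 11969 genes were called by edgeR (0%; 2007 at an unadjusted p under 0.05), and without LBP replicate 2 there were 4 of 12244 (0.0327%; 991 at an unadjusted p under 0.05). The 4 were Spink1, Cgref1, Bc1 and Zfp36l1. Cebpb, Cebpd, Nr2f6 and Lrp1 did not pass this test. Without LBP replicate 2 their differences were -1.15, -1.81, -0.59 and -0.42 (adjusted p = 0.328, 0.214, 0.747 and 0.707). The LBP effects were -1.73, -1.59, -1.72 and -0.95. The fitted mean effect of EPDR1 and FCN2 was thus also negative for Cebpb, Nr2f6 and Lrp1. Spink1 was between 0 and 1.23 CPM in the EPDR1 and FCN2 libraries and between 0 and 0.683 CPM in the batch 2 vehicle libraries. Bc1 was at 13.5 to 44.1 CPM in the EPDR1 and FCN2 libraries, against 20.3 to 32.4 CPM in the batch 2 vehicle libraries, so the 21.5 and 21 CPM of LBP replicates 3 and 4 lay within the range of batch 2 vehicle and above that of batch 1 vehicle. In the FSTL3 libraries of batch 2 Bc1 was at 1.08 to 2.08 CPM, so its level also varied widely between groups of 1 batch. Zfp36l1, an RNA-binding protein that destabilises AU-rich transcripts, was at 4.53, 25.1 and 25.5 CPM after LBP, against 45.9, 51.4, 59.8 and 33.2 CPM after batch 1 vehicle, and at 72.8 to 141 CPM after EPDR1 or FCN2, against 60.8 to 81.8 CPM after batch 2 vehicle. Its LBP effect alone was -0.91 ± 0.24 with an adjusted p of 0.0635 (-1.25 and 0.0231 with all libraries), and the difference between the effects was -1.55 ± 0.28 (adjusted p = 0.032). Cgref1 had a difference of 5.31 ± 0.86 (adjusted p = 0.015), and its LBP value was lost without LBP replicate 3.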

How the data were processed

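Liver RNA was sequenced from total RNA with the Kappa Hyper-prep kit (800 ng input, paired reads of 50 bases), per the labels' protocols. The table the authors deposited holds whole-number read counts of 54838 genes. STAR 2.6.0c aligned the reads to GRCm38, per the submitters' processing notes, and featureCounts 1.6.3 summed those in Ensembl 95 exons by gene, per the file headers. The header's command sets no strand option, so a gene and an antisense partner cannot be told apart, and multi-mapping reads were left out by default, which lowers genes with near-identical copies.

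From these counts, edgeR 4.0.16 (R 4.3.3) fitted a quasi-likelihood model with TMM scaling, filterByExpr and 1 mean per group over all 23 libraries, or over 22 without LBP replicate 2, with Benjamini-Hochberg adjustment over all genes tested. Levels are CPM on TMM-scaled library sizes. A floor is 3 counts over a group, and floors and intervals cover counting error only. DESeq2 1.42.0, limma-voom (limma 3.58.1), other scaling and filters, batch 1 alone, a replicate block and leaving out each library were alternatives. The scripts were tested on simulated data.

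The comparison, the 36 pathway and 27 marker lists and the tests were chosen with earlier results of these data known. Named genes were, among called genes of at least 1 CPM with no overlap between the groups and other than a predicted symbol, the 12 highest and 12 lowest in each fit, up to 4 members of each pathway list with a call, and Lbp, Cd14, Tlr4 and Ly96; the 10 highest and 10 lowest in LBP replicate 2 were ranked as a description. Of these, some list members are given by counts only. A few named genes are not reported here.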

Additional observations from a re-analysis of the deposited data

Results flagged for a closer look

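In the vehicle libraries of batch 1, 1 library stood apart from the other 3 for several measures that the text names; chance alone would do this in about 1 in 20 groups. Klk1 was at 1.46 CPM in vehicle replicate 4, and the pancreatic acinar markers took 0.0159% of that library's counts. Slc6a20b was at 0.108 CPM in vehicle replicate 3, which is 1 count. Pcx was at 595 CPM and Kap at 3.42 CPM in vehicle replicate 2, where mitochondrial RNA other than the protein-coding transcripts took 0.701% of the counts. Col18a1 was at 759 CPM in vehicle replicate 1, below the other 3 vehicle libraries.

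For 4 genes the LBP effect without LBP replicate 2 differed from the mean of the EPDR1 and FCN2 effects, by edgeR's quasi-likelihood test of the difference. The log2 difference was 5.31 for Cgref1 (adjusted p = 0.015), 1.89 for Bc1 (adjusted p = 0.032), -1.55 for Zfp36l1 (adjusted p = 0.032) and 9.62 for Spink1 (adjusted p = 0.0293). The Spink1 value is a fitted one that depends on the prior count, since its vehicle libraries were at 0. With all libraries the adjusted p-values were 0.0794, 0.0794, 0.0827 and 0.0794. LBP and its vehicle belonged to batch 1 and the other proteins to batch 2, so protein and batch cannot be told apart here. The labels do not say what the batches were.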

How the results depend on the processing

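With all libraries, 922 genes were called. This became 3 with limma-voom, 404 with no filter on low counts, 0 with batch 1 libraries only and 11 with the replicate block, and 89 to 2145 when 1 library was left out, the lowest without LBP replicate 2. Without LBP replicate 2, 89 genes were called, against 221 with DESeq2, 36 with limma-voom, 506 with no filter, 12 with batch 1 only, 21 with the replicate block and 23 to 345 when 1 further library was left out (260 without LBP replicate 3, 345 without LBP replicate 4, and 24, 46, 23 and 52 without vehicle replicates 1 to 4). Of these calls 70.8% were higher, against 54.3% with DESeq2, 50.0% with limma-voom, 33.3% with batch 1 only, 54.2% without LBP replicate 3 and 96.5% without LBP replicate 4. Same-numbered LBP and vehicle libraries correlated in their deviations from the group mean at 0.037, 0.106 and 0.027. Differently numbered ones correlated at -0.069 to 0.02. Whether replicate numbers pair the libraries is not settled by these values, since the LBP mean included LBP replicate 2. The cause of these shifts was not tested.

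Several log2 fold changes with all libraries turned their sign. With limma-voom these were Tmem238 (-0.36, against 3.36), Zfp771 (-0.40), Lrg1 (-0.01), Fgb (-0.91), Fga (-0.60), Cd14 (0.00), Ly96 (-0.02), Kdm6b (-0.33) and Btf3 (-0.12). With the replicate block they were Lrg1 (-0.09), Fgb (-0.71), Fga (-0.50), Pcx (-0.04) and Kdm6b (0.00), and with no filter Pcx (-0.02). Angptl8 turned to 0.04 with DESeq2. Hspg2, at -0.04, became 0.24 with DESeq2, 0.12 with its size factors, 0.03 with a stricter filter, 0.18 with batch 1 only and 0.01 with protein-coding nuclear genes. When 1 library was left out, the ranges were -1.71 to 3.95 for Tmem238, -1.37 to 2.21 for Zfp771, -1.35 to 3.66 for Pgls, -0.54 to 0.04 for Rela, -1.11 to 1.2 for Lrg1, -1.16 to 0.57 for Fgb, -1.05 to 0.49 for Fga, -1.52 to 0.16 for Angptl8, -0.46 to 0.31 for Pcx, -0.56 to 1.79 for Gcgr and -0.25 to 0.93 for Dnaja1. They were -0.76 to 0.87 for Cd14, -0.81 to 0.51 for Ly96, -1.17 to 1.55 for Kdm6b, -0.06 to 0.94 for Btf3, -0.97 to 3.30 for Cyp4b1, -1.16 to 0.39 for Hspg2, -0.68 to 0.05 for Pcdh1, -0.17 to 3.11 for Tirap and -0.01 to 1.51 for Irak1. Without LBP replicate 2, Cd14 turned to -0.18 with limma-voom and -0.14 with the replicate block, Irak1 (-0.01 as reported) to 0.04 with the block and 0.00 with batch 1 only, and leaving out 1 further library gave -0.34 to 1.13 for Fgb, -0.42 to 1.05 for Fga, -0.85 to 0.39 for Lbp, -1.80 to 0.99 for Cd14, -0.86 to 0.81 for Ly96, -0.55 to 4.20 for Cyp4b1, -0.60 to 0.14 for Tirap, -0.05 to 0.01 for Irak1 and -5.31 to 11.35 for Kap.

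With 3 and 4 libraries a group, and as few as 773499 counts in vehicle replicate 2, genes at a few CPM rest on single counts. Where 1 LBP library is left, it is assumed to vary as the other groups do.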
